A study of Mus musculus with 4 samples.

Results

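The 10 genes described here, Hmgn5, Sox15, Zfp296, Hey1, Gtsf1l, Snhg12, Fermt3, Fblim1, Slmo1 and Efcab10, stood among those with the largest fall in female germ cells of the fetal mouse from E11.5 to E14.5 (embryonic day). They are 10 of the 19321 genes in the deposited table. They were chosen by their low germ cell level at E14.5 relative to E11.5 in an earlier look at the same libraries, so that difference is given as a description and supports nothing. What follows is when the transcripts were lost, in which cells of a library they persisted, and whether the somatic cells of the same gonads kept them.

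The study profiled gonads of XX embryos of the C57BL/6 strain, with no treatment or engineered allele in the labels, by droplet-based single-cell RNA sequencing on each day from E11.5 to E14.5. Each of the 4 stages is a single library, which means that stage and library cannot be told apart, and neither a test nor a p-value is given. The number of embryos behind each library is not given in the sources used here. Germ cells were taken as cells with at least 3 of the 6 markers Dazl, Ddx4, Dnd1, Mael, Dppa5a and Mov10l1 above 0, and somatic cells as cells with at most 1 of them and with globins under 5% of their unique molecular identifiers (UMIs).

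Primordial germ cells keep part of the pluripotency programme when they settle in the gonad. In the ovary they then switch it off as they answer retinoic acid, express Stra8 and enter the prophase of meiosis. Pou5f1 (OCT4), a core pluripotency factor, marks the earlier state and Stra8, which is needed for meiotic initiation, the later one, so a single library can hold cells at several points of this transition.

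The 4 libraries held 245, 650, 753 and 2410 germ cells in stage order, and 4352, 3962, 3824 and 2010 somatic cells, of 19387 deposited cells. The median germ cell carried 31268, 27740, 24776 and 15541 UMIs and the median somatic cell 13786, 12134.5, 10438.5 and 10077.5, so germ cell depth fell over the course. Levels are therefore UMIs of a gene per 1000000 UMIs of the class (CPM), and shares of cells are given after thinning each cell to 5000 UMIs. Intervals are exact 95% intervals (Poisson for a level, binomial for a ratio, Clopper-Pearson for a share) and cover counting error only. In all, 175 cell barcodes occurred in more than 1 library, on 354 cells, and leaving those cells out changed no count of members given below. The label of the germ cells held on markers the assignment did not need: Pou5f1 was 140 CPM in germ cells and 0.931 CPM in somatic cells at E11.5, and 175 and 3.14 CPM at E14.5.

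The genes are scattered over the genome (GENCODE M21 on GRCm38/mm10), with no neighbours among them apart from Snhg12 and Fblim1, which share chromosome 4 but lie far apart. Hmgn5 lies on X:109004534-109013404, Gtsf1l on 2:163087034-163087855, Zfp296 on 7:19577287-19580656, Sox15 on 11:69655314-69656727, Hey1 on 3:8663359-8667256, Snhg12 on 4:132308623-132311024, Fblim1 on 4:141576062-141606096, Efcab10 on 12:33394854-33401267 and Fermt3 on 19:6998958-7019469. Slmo1 is named Prelid3a in that annotation. Of the 10, Snhg12 is annotated as a lincRNA and the other 9 as protein-coding. Ends of Zfp296, Sox15 and Fermt3 overlap Gemin7, Mpdu1 and Trpt1 on the opposite strand, and the Snhg12 gene encloses the small nucleolar RNA genes Snora16a, Snora44, Snora61 and Snord99. Whether the counting used strand is not given in the sources used here, so reads from these overlaps could be assigned to either gene.

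Promoter windows were available for 8 of the 10 genes (RefSeq, GRCm38.p6, the 250 bases before the annotated start, 9 windows because Fblim1 has a pair of starts), with no entry for Slmo1 and Hey1. The windows differed widely in CpG content, and 3 are shown as examples of a CpG-rich window, a CpG-poor window and the one octamer match. In the first and second sequence CpG dinucleotides are in capitals. In the last the capitals mark an octamer match (ATTTGCAT, the letters bound by POU factors such as the Pou5f1 product) and an E2F-type match (TCCCGC, read here on the opposite strand). Each runs 5′ to 3′ on the gene's strand from 250 to 51 bases before the start: Hmgn5 is X:109013431-109013630 (minus strand), Gtsf1l 2:163089652-163089851 (minus strand) and Zfp296 7:19577037-19577236 (plus strand).
Hmgn5: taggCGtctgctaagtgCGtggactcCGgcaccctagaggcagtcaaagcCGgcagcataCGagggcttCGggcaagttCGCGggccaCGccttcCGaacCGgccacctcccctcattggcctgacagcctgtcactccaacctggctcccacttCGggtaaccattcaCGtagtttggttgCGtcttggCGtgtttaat
Gtsf1l: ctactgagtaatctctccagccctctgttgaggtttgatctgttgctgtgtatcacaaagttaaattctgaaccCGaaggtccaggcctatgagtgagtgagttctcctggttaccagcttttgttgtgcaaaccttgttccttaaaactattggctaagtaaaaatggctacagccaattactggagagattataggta
Zfp296: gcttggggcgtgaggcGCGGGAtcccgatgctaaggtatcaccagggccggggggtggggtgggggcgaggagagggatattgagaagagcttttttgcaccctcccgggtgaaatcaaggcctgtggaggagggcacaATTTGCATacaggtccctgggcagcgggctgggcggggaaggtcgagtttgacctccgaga
The windows of Gtsf1l and Sox15 lie upstream of the GENCODE start without adjoining it, because the RefSeq start differs. The shown Hmgn5 stretch holds 15 CpGs and the Gtsf1l stretch 1. Over the whole 250-base window the observed-to-expected CpG ratio was 0.856 for Hmgn5, 0.744 for Snhg12, 0.592 for Zfp296, 0.0861 for Gtsf1l and 0.0640 for Fermt3, against a median of 0.373 over all 32851 windows. The windows thus ranged from rich to poor in CpG. Of 5 motifs searched on both strands, the octamer was found in 1 of 8 members (Zfp296, first base 111 before the start) and in 1.60% of all windows, and TCCCGC in 1 of 8 (Zfp296) and in 16.9% of windows. TGGGAA, the core of the RBPJ motif, was found in 4 of 8 (Efcab10, Fblim1, Snhg12 and Sox15) and in 21.6% of windows. The E-box CACGTG (6.02% of windows) and the SOX-type AACAAT (9.42%) were in 0 of 8. A match describes letters only, and none of these windows was measured for binding or methylation here.

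Among the regulators of chromatin and transcription, Hmgn5 carried most of the counts. It encodes a nucleosome-binding HMGN protein that loosens compacted chromatin. Its germ cell level was 408, 327, 113 and 32.2 CPM in stage order, or 13.2, 9.65, 2.90 and 0.544 UMIs per cell. Sox15, a SOX family transcription factor, stood at 62.6, 44.8, 25.6 and 6.61 CPM. Zfp296, a zinc finger protein of pluripotent cells, stood at 26.1, 19.5, 9.31 and 2.21 CPM. Hey1, a transcriptional repressor that Notch signalling induces in many tissues, went from 42.7 through 33.4 and 18.9 to 4.72 CPM. All 4 went down at each step, with no overlap between the intervals of neighbouring stages.

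The RNA-related members went in the same direction, and of these Snhg12 had a different timing. Gtsf1l, a relative of the piRNA pathway factor Gtsf1, stood at 47.9, 28.8, 11.3 and 3.29 CPM in stage order. Snhg12, a long non-coding RNA that hosts small nucleolar RNAs, stood at 40.5, 12.98, 9.99 and 3.83 CPM, so its largest early drop came between E11.5 and E12.5. Of the adhesion genes, Fermt3 encodes kindlin-3, the integrin activator of blood cells, and Fblim1 encodes migfilin, a filamin-binding adaptor of cell adhesions. Fermt3 stood at 33.3, 28.0, 14.4 and 3.64 CPM in germ cells. Fblim1 stood at 24.3, 12.98, 8.59 and 3.51 CPM. The last pair are Slmo1, of the PRELI family that moves phospholipids inside mitochondria, and Efcab10, an EF-hand protein. Slmo1 stood at 29.9, 20.2, 9.57 and 1.87 CPM, and Efcab10 at 21.9, 15.5, 6.93 and 2.24 CPM. Among these 6 genes, neighbouring stages overlapped in their intervals only for Fermt3 between E11.5 and E12.5 and for Snhg12 between E12.5 and E13.5.

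**Figure D1:**
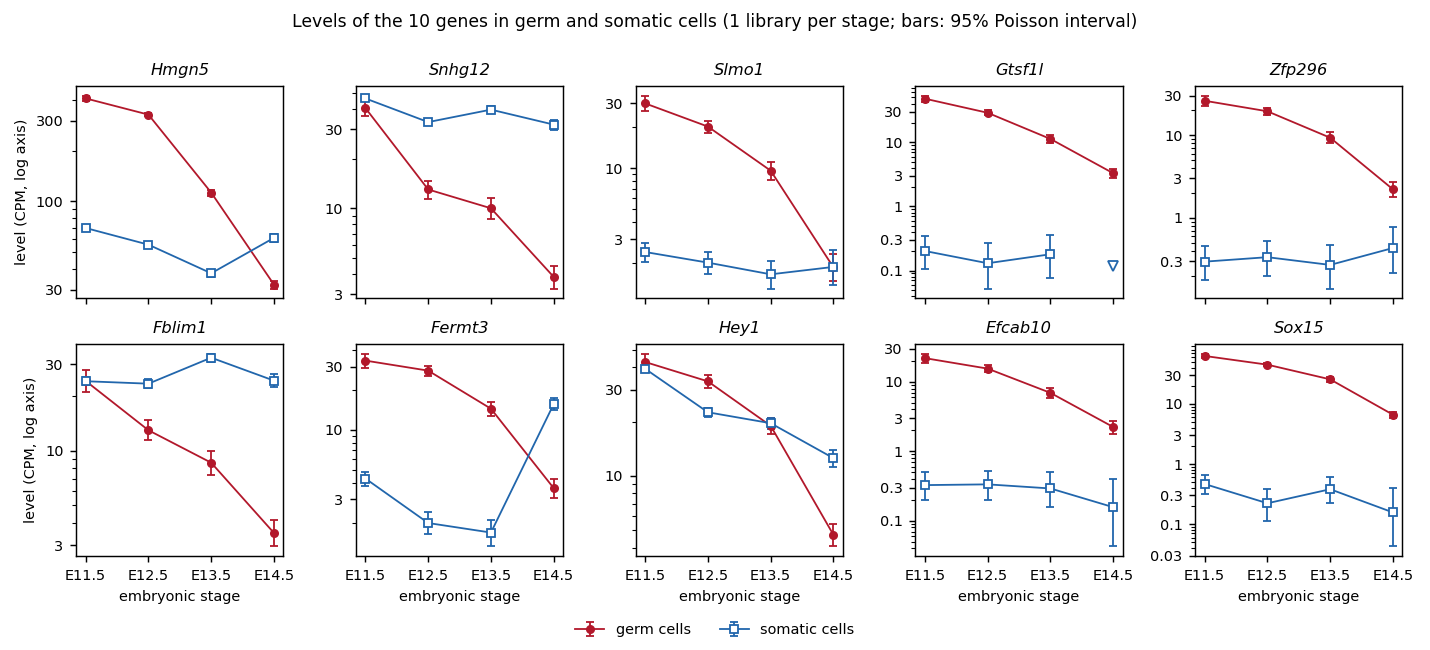
Level of each gene (CPM, log axis) in germ cells (filled circles) and somatic cells (open squares) at the 4 stages, 1 library per stage, with 95% Poisson intervals. An open triangle marks 0 UMIs, drawn at the level of 3 UMIs. Germ cell levels go down at every stage in all 10 genes, while somatic levels of Snhg12, Fblim1 and Hmgn5 stay within about 2-fold and that of Fermt3 ends higher.

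Over the whole course the log2 ratio of E14.5 to E11.5 ran from -4.00 (-4.39 to -3.62) for Slmo1 to -2.79 (-3.11 to -2.47) for Fblim1, with a median of -3.35, against 0.29 over all genes tested. To be called at this contrast, a gene needed 50 UMIs in the pair of libraries together, 20 CPM in the one where it was higher, a ratio of 4 or more and non-overlapping intervals. All 10 genes were called lower, as their choice fixed, and 1.69% of the 5739 genes tested were called lower. They hold ranks between 2 and 20 among the 97 genes called. Fblim1 was the member with the smallest ratio, just inside, and Frat2, at rank 22 with -2.74 (-3.06 to -2.42), lay just outside. All 10 still had UMIs in germ cells at E14.5. The least abundant, Slmo1, had 76 in the 2410 germ cells, or 1.87 CPM, no higher than the 1.88 CPM of somatic cells, and 31.7% of unthinned germ cells had a UMI of Hmgn5 (42.9% of somatic cells).

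Read step by step with the ratio set to 2, the losses were spread unevenly. These steps are parts of the contrast that chose the genes and are given as a description. Between E11.5 and E12.5 all 10 were lower but 1 of 10 was called, Snhg12 at log2 -1.64 (-1.88 to -1.40), where 0.246% of all genes were called. The median over the 10 was -0.49. Between E12.5 and E13.5 the call was made for 3 of the 6 members that reached the minimum of 20 CPM, against a background of 0.606%, and the median was -1.01. Without the CPM minimum, an alternative chosen after seeing the data, 5 of 10 were called, against 1.13%. Here Hmgn5 moved most, by -1.53 (-1.61 to -1.46), and Snhg12 least, by -0.38 (-0.66 to -0.10). Between E13.5 and E14.5 the median was -1.88, from -2.36 for Slmo1 to -1.29 for Fblim1. At this last step 2 of 2 members above the CPM minimum were called, against 2.36%, and 10 of 10 without it, against 3.95%.

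The same course appeared in single cells at equal depth. After thinning to 5000 UMIs, Hmgn5 was detected in 81.2% (75.8 to 85.9), 74.3%, 34.8% and 12.3% of germ cells over the 4 stages. In somatic cells the share was 26.8%, 22.0%, 16.4% and 22.0%, so at E14.5 fewer germ cells than somatic cells held a transcript. Sox15 was detected in 27.3%, 22.6%, 10.9% and 2.86% of germ cells against 0.184%, 0.126%, 0.183% and 0.0498% of somatic cells. The median share over the 10 genes was 18.4%, 10.7%, 4.52% and 1.60% (63.3%, 42.0%, 20.7% and 5.04% without thinning). Thinned germ cells with no UMI of any of the 10 made up 4.49% (2.26 to 7.89) of the first library, then 10.2%, 44.4% and, in the last, 77.7% (76.0 to 79.4). Cells with at least 3 of the 10 made up 43.7%, 23.2%, 6.24% and 0.373%.

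**Figure D2:**
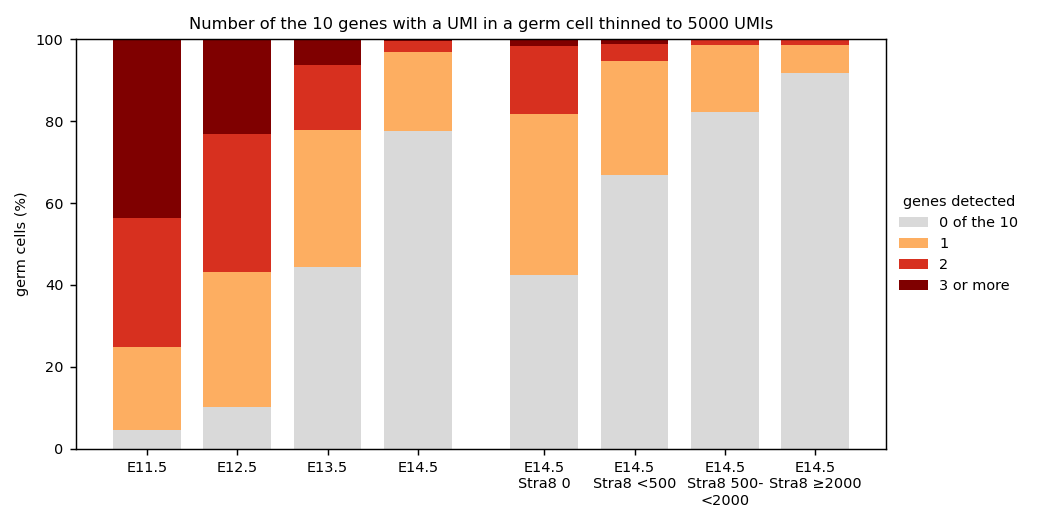
Share of germ cells (%) by how many of the 10 genes had a UMI after each cell was thinned to 5000 UMIs, for the 4 stages (left) and for the E14.5 cells by their Stra8 level (right). Cells with none make up 4.49% of the E11.5 library and 77.7% of that of E14.5, and within E14.5 from 42.5% of cells without Stra8 to 91.8% of cells at 2000 CPM or more.

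Within the E14.5 library, the genes were highest in the few germ cells that had no Stra8 and lowest in those with the most. Even without Stra8 all 10 were below their E11.5 level, by a median log2 ratio of -1.80. Cells were binned by their own Stra8 level: none (120 cells, 4.98%), above 0 and under 500 CPM (548 cells, 22.7%), 500 to under 2000 (1522 cells, 63.2%) and 2000 or more (220 cells, 9.13%). The median cell of the bins carried 19345, 18939.5, 14967 and 13259 UMIs. Hmgn5 stood at 106 (93.5 to 120), 43.6, 21.2 and 18.7 CPM across them. Sox15 stood at 24.2, 9.81, 3.89 and 2.34 CPM, and Hey1 at 17.3, 7.38, 2.52 and 2.34. For comparison, the meiotic axis gene Sycp3 was at 51.4, 137, 413 and 610 CPM in the same bins and Pou5f1 at 323, 246, 139 and 78.8.

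The lower-abundance members went the same way on few counts. Zfp296 had 20, 51, 18 and 1 UMIs in the 4 bins, or 8.22, 4.59, 0.744 and 0.334 CPM. Slmo1 had 19, 32, 24 and 1, or 7.81, 2.88, 0.993 and 0.334 CPM. Fermt3 had 27, 76, 45 and 0 UMIs, or 11.1, 6.84, 1.86 and 0 CPM. Counted against a floor of 3 UMIs over the 220 cells, Fermt3 was at least 11.1-fold lower at high Stra8 than at none. Gtsf1l went from 10.7 to 1.34 CPM between these outer bins, Fblim1 from 9.45 to 1.34, Snhg12 from 8.63 to 1.00 and Efcab10 from 4.93 to 1.34, the last with 12 and 4 UMIs. Between high and no Stra8, 2 of the 2 members that met both minimums were called lower (Hmgn5 and Sox15), where 13.6% of all genes were. The median ratio of the 10 was -3.05, against 0.12 over all genes tested, and the interval lay below 0 in all 10. Setting all 2290 Stra8-positive cells against the 120 without, which has more counts, 9 of 10 were called without the CPM minimum, against 8.21%, with Efcab10 the exception at -1.26 (-2.14 to -0.24).

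Cells without Stra8 at E14.5 differed in another respect. At least 3 markers of a somatic class were found in 28.3% of them, against 11.9%, 10.9% and 4.09% in the bins of rising Stra8. Without such cells Hmgn5 was at 115, 44.5, 20.2 and 18.5 CPM over the bins, and Sox15 at 29.2, 10.3, 3.88 and 2.45. Genes that somatic cells also express were lower in the cells that remained: Snhg12 was 4.95 CPM in cells without Stra8 in place of 8.63, and Fblim1 6.06 in place of 9.45. Somatic cells at E14.5 held 0.145 Stra8 UMIs per cell and germ cells 15.4, or 11.4 and 913 CPM. Whether the somatic Stra8 UMIs were free RNA, and what such RNA did to the bins, was not tested.

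The gradient was already present at E13.5, in the library where germ cells were about evenly split. There 370 cells (49.1%) had no Stra8, 306 (40.6%) were under 500 CPM, 76 (10.1%) between 500 and 2000, and 1 above. The respective median depths were 25912, 23399.5 and 20023 UMIs, and 13.2%, 13.4% and 10.5% of the cells of these 3 bins had 3 or more somatic markers. Hmgn5 was 167, 60.7 and 27.8 CPM over these bins, Sox15 34.8, 16.9 and 9.68, and Gtsf1l 17.2, 5.73 and 1.21. With all Stra8-positive cells set against those without, 3 of 3 members above the CPM minimum were called lower, against 0.462% of all genes, and 8 of 10 without that minimum, against 1.13%. Snhg12, at -0.98 (-1.44 to -0.54), fell just short of the ratio of 2. Efcab10 was the only member whose interval reached 0, with a log2 ratio of -0.43 (-0.95 to 0.09).

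**Figure D3:**
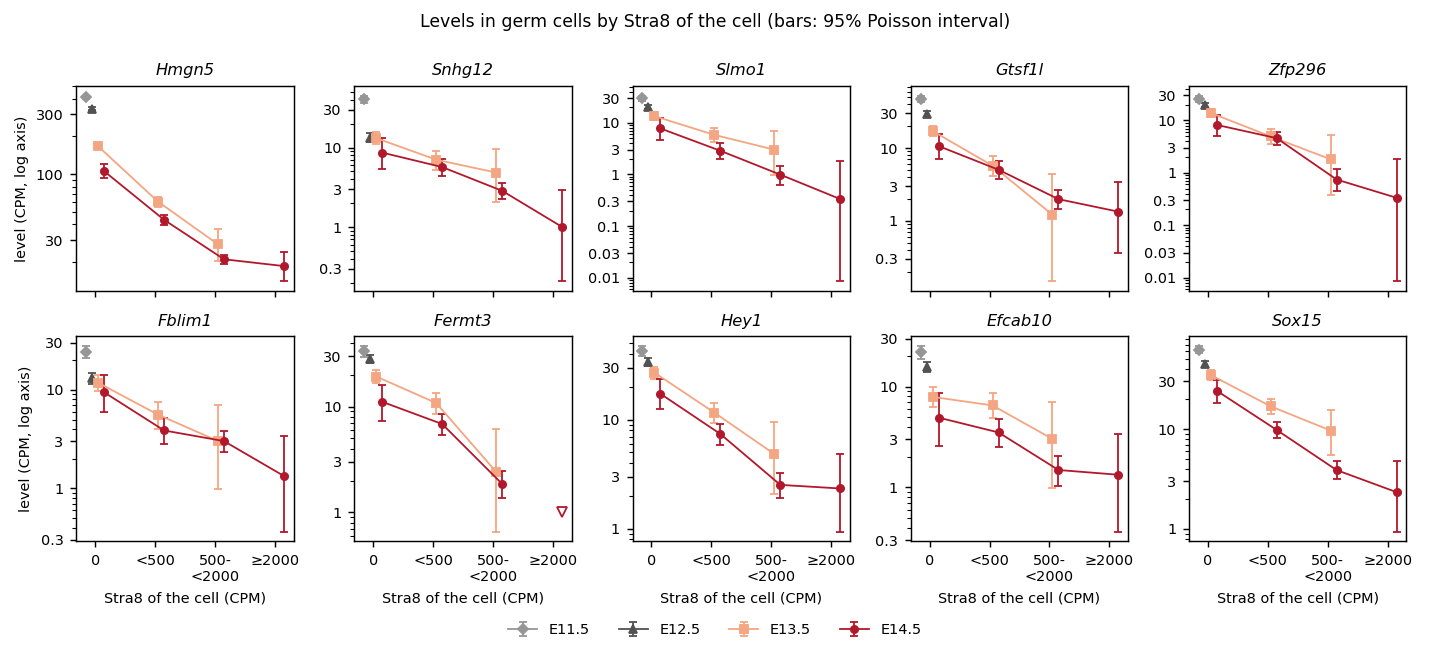
Level of each gene (CPM, log axis) in germ cells by the Stra8 level of the cell, for each stage (bins of at least 30 cells), with 95% Poisson intervals. An open triangle marks 0 UMIs, drawn at the level of 3 UMIs. At E13.5 and E14.5 levels go down from left to right in the 10 panels, and among cells without Stra8 the 4 stages themselves descend from E11.5 to E14.5, apart from Snhg12 between E12.5 and E13.5.

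Stage and Stra8 were then held apart. Among germ cells without Stra8, E14.5 was compared with E13.5: 0 of the 3 members above the CPM minimum were called, where 0.41% of all genes were, and 0 of 10 without that minimum, where 0.782% were. The 10 ratios were still all below 1, with a median of -0.67 (all genes 0.13), and 7 intervals lay below 0. Hmgn5, with the most counts, was at -0.66 (-0.85 to -0.47). Pou5f1 in the same cells was higher at E14.5, by 0.81 (0.69 to 0.93). At low Stra8 the median over the 10 was -0.59 with 6 intervals below 0, and at 500 to under 2000 CPM it was -0.85 with 1, where E13.5 had 76 cells.

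Germ cells without Stra8 also carried less of these transcripts than at E11.5, a contrast that shares its reference cells with the choice of the genes. From E11.5 to E13.5, cells without Stra8 differed by a median of -1.09 over the 10, with 6 of 10 called, against 0.895%. By E14.5 the median was -1.80 and 10 of 10 were called, against 2.14%. Snhg12 was at -2.23 (-2.94 to -1.59) and Gtsf1l at -2.16 (-2.80 to -1.59), while Hey1 was at -1.31 (-1.81 to -0.84).

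Because the mix of bins changed between E13.5 and E14.5, the E14.5 levels were also computed with each Stra8 bin given its E13.5 weight. The median log2 ratio over the 10 genes was then -0.61 (from -0.86 for Slmo1 to -0.36 for Fblim1) in place of -1.88. With bins set after thinning every cell to 5000 UMIs, it was -0.78 (from -1.23 to -0.66). The weighted values have no interval and the weighting holds the share of each bin fixed, not the Stra8 level inside it. In every gene both weighted ratios lay above the upper bound of the observed interval and below 0.

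**Figure D4:**
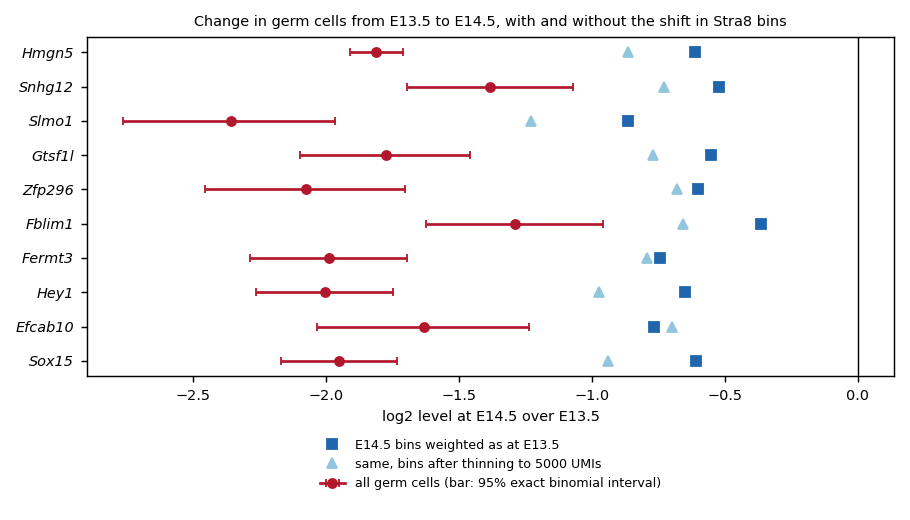
Log2 level at E14.5 over E13.5 in germ cells for each gene, as observed (circles, 95% exact binomial interval) and with the Stra8 bins of E14.5 weighted as at E13.5 (squares; triangles for bins set after thinning). The observed median is -1.88 and the weighted medians are -0.61 and -0.78, and all weighted values remain below 0.

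Most members were also lower in cells without Pou5f1. At E14.5, 579 germ cells had no Pou5f1 UMI, 998 were under 200 CPM and 833 at or above it, with median depths of 13061, 15821 and 17466 UMIs. Of these cells, 14.51%, 12.7% and 7.56% had 3 or more somatic markers. Gtsf1l had 1 UMI in the cells without Pou5f1 and 93 in those at 200 CPM or more, or 0.125 and 5.95 CPM. Slmo1 had 0 and 52 UMIs, at least 8.89-fold lower against the floor of 3 UMIs. Sox15 was at 1.25 and 11.2 CPM, a log2 ratio of -3.17 (-4.25 to -2.25), and Zfp296 at 0.499 and 4.16 CPM, a ratio of -3.06 (-4.98 to -1.63). Hmgn5 was at 16.2 and 48.8 CPM, a smaller ratio of -1.59 (-1.87 to -1.32). Snhg12 was at 4.11 and 3.84 CPM and Fblim1 at 3.37 and 3.45 CPM, with log2 ratios of 0.10 (-0.56 to 0.74) and -0.04 (-0.76 to 0.66). Both genes are also expressed in somatic cells, and the values changed when cells with 3 or more somatic markers were left out (495 and 770 cells remained). Fblim1 was then at 1.05 (0.422 to 2.16) CPM without Pou5f1 and 3.18 (2.32 to 4.25) CPM at high Pou5f1, and Hey1 at 2.25 (1.26 to 3.71) and 6.50 (5.24 to 7.97) CPM, with no overlap in either gene. Snhg12 was at 1.95 (1.04 to 3.34) and 3.04 (2.197 to 4.09) CPM, with overlap.

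Among all germ cells the 1 member above the CPM minimum, Hmgn5, was called lower without Pou5f1, against 4.72% of genes. That count was 0 with bins set after thinning, with 2 germ cell markers in place of 3 and with the somatic CPM subtracted. Without that minimum 7 of 10 were, against 6.76%, the others being Snhg12, Fblim1 and Hey1 (-0.95, -1.62 to -0.33).

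Pou5f1 and Stra8 overlap as markers, so the cells at high Pou5f1 were split by Stra8. In the 430 of them with Stra8 at 500 CPM or more, Pou5f1 was 299 CPM, against 353 CPM in the 403 with less. Hmgn5 was 27.2 against 66.7 CPM in these cells, Sox15 5.50 against 15.9 and Zfp296 1.13 against 6.67. All 10 members were lower with more Stra8, 8 intervals lay below 0 and the median was -1.41, against 0.07 over all genes. Without the CPM minimum 7 of 10 were called, against 1.84%. The lower levels at high Stra8 were therefore also seen in cells that kept Pou5f1.

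The reverse split was thinner. Among cells with Stra8 of at least 500 CPM, 501 had no Pou5f1, and there the 10 members were all lower than in the 430 at high Pou5f1, with 5 intervals below 0 and a median of -1.17. Among cells under 500 CPM, the 78 without Pou5f1 included 43.6% with 3 or more somatic markers, against 7.69% of the 403 at high Pou5f1. Only 6 of the 10 members were lower in those 78 cells than in the 403, with 5 intervals below 0 and 2 above it. The 2 above were Snhg12, at 20.2 CPM against 4.56, a log2 ratio of 2.15 (1.34 to 2.93), and Fblim1, at 10.6 against 3.74, a ratio of 1.50 (0.40 to 2.49). Both genes are also expressed in somatic cells, and the part of such RNA in this result was not tested. Gtsf1l, Zfp296 and Slmo1, which reached at most 2.42 CPM in somatic cells, had 0 UMIs in the same 78 cells. Against the floor of 3 UMIs they were at least 2.97-, 2.52- and 1.86-fold lower there than in the 403 cells.

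Set against somatic cells at E11.5, the 10 genes ranged from nearly restricted to germ cells to level with the soma. The germ cell levels of E11.5 and E14.5 are those that chose the genes, so the counts against somatic cells are descriptions. At E11.5, 7 of 10 were called at least 2-fold higher in germ cells than in somatic cells, where 11.6% of genes were. The log2 ratio was 7.89 (7.10 to 8.81) for Gtsf1l, 7.07 for Sox15, 6.47 for Zfp296, 6.07 for Efcab10, 3.63 for Slmo1, 2.95 for Fermt3 and 2.55 for Hmgn5. Hey1 at 0.12 (-0.04 to 0.29) and Fblim1 at 0.01 (-0.22 to 0.22) did not differ beyond counting error, and Snhg12 was at -0.19 (-0.36 to -0.03). The germ-restricted Gtsf1l, Sox15, Zfp296 and Efcab10 stayed under 0.5 CPM in somatic cells at all 4 stages. Gtsf1l had 0 UMIs in the 2010 somatic cells of E14.5, with an upper interval bound of 0.145 CPM.

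The 5 genes above 10 CPM in somatic cells at E14.5 were lower in germ cells by then. At E14.5 Snhg12 was 3.83 CPM in germ cells and 32.1 in somatic cells, a log2 ratio of -3.07 (-3.32 to -2.82). Fblim1 was at 3.51 and 24.4 CPM, Hey1 at 4.72 and 12.54, Fermt3 at 3.64 and 15.6, and Hmgn5 at 32.2 and 60.9, ratios of -2.80, -1.41, -2.10 and -0.92. By the rule without a CPM minimum 4 members were then lower in germ than in somatic cells, against 29.0% of genes, and 4 still higher, against 19.2%. The 4 still higher were Gtsf1l (at least 28.0-fold, against a floor of 3 UMIs), Sox15 (5.40, 4.02 to 7.28), Efcab10 (3.83, 2.43 to 5.74) and Zfp296 (2.36, 1.45 to 3.41), so the germ-restricted members kept a remnant above the somatic level. Slmo1 was level with the soma, at 1.87 and 1.88 CPM.

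In somatic cells the median log2 ratio of E14.5 to E11.5 over all members was -0.45, against -3.35 in germ cells. Over all genes tested in somatic cells it was -0.03. Of the members, 7 lay below 0 in somatic cells, 5 of them with the whole interval, and 1 interval lay above 0. The germ-restricted members had few somatic UMIs at either stage, so their somatic ratios rest on low counts. Between E11.5 and E14.5 somatic cells were called lower for 1 of 4 members tested, Hey1 at -1.64 (-1.82 to -1.47), against 2.72% of genes. Fblim1 was at 0.01 (-0.13 to 0.15), Hmgn5 at -0.19 (-0.28 to -0.11) and Snhg12 at -0.53 (-0.64 to -0.41). Fermt3 went the other way, with 4.30, 1.99, 1.68 and 15.6 CPM in stage order, a log2 ratio of 1.86 (1.64 to 2.09) between the ends. It was called higher without the CPM minimum, as were 8.14% of genes.

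Marker-defined classes showed where in the soma these 5 genes were found. A somatic cell was put with a class when at least 3 of its markers, a list of 4 to 9 genes, were above 0 and no other class had as many. Fblim1 was highest in interstitial cells, at 59.0, 58.0, 80.0 and 67.6 CPM in stage order, and between 6.49 and 9.45 CPM in pre-granulosa cells. Hey1 went from 50.6 through 26.1 and 23.4 to 16.6 CPM in pre-granulosa cells, the supporting lineage of the ovary, and from 46.0 to 20.4 CPM between E11.5 and E14.5 in endothelial cells. Snhg12 was spread over them, with 34.1 CPM in pre-granulosa and 28.6 in interstitial cells at E14.5. Hmgn5 at E11.5 was 133 CPM in endothelial cells, 79.3 in interstitial and 56.6 in pre-granulosa cells, all below the 408 of germ cells.

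Of the named somatic classes, those with blood markers had the most Fermt3. At E11.5 immune cells and megakaryocytes held 132 and 92 of the 277 somatic Fermt3 UMIs, but at E14.5 cells of no class held 281 of 399. Immune cells, of which there were 37, 13, 24 and 33, held 145, 112, 95.5 and 148 CPM, and the 2 cells with megakaryocyte markers at E11.5 held 1360 CPM. Endothelial cells had 0 UMIs in 3 libraries and 0.300 CPM in that of E12.5. Erythroid cells, which are not counted as somatic here, stood at 2.58 CPM in the E11.5 library and at 46.7 in that of E14.5. Cells of no class went from 2.45 to 46.6 CPM, and the globin share of their median cell was 0.110% and 0.131%. Pre-granulosa and interstitial cells were at 3.18 and 3.53 CPM at E14.5. The part of blood cells in the higher somatic level of E14.5 was not tested.

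**Figure D5:**
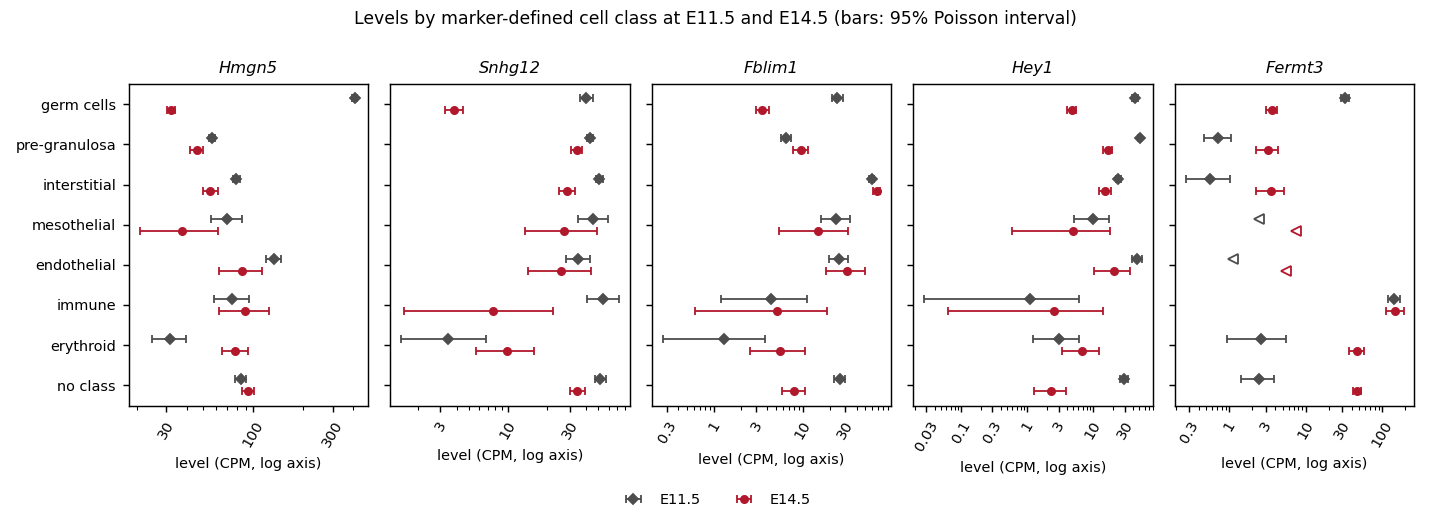
Levels (CPM, log axis) of the 5 genes above 10 CPM in somatic cells at E14.5, by marker-defined class at E11.5 (diamonds) and E14.5 (circles), with 95% Poisson intervals. Open triangles mark 0 UMIs, drawn at the level of 3 UMIs. Germ cells move furthest to the left in each panel except Hey1, where cells of no class move further, and Fermt3 is high in immune cells and, at E14.5, in erythroid cells and cells of no class.

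Relatives of the 10 genes went in different directions. These lists were drawn up with earlier results of the data known and are counted at a ratio of 2 for E14.5 against E11.5 in germ cells, where 8.05% of genes were lower and 22.4% higher. Of the HMGN family, Hmgn1 was at -0.60, Hmgn2 at 0.00 (531 and 532 CPM) and Hmgn3, under the CPM minimum, at 1.90, against -3.67 for Hmgn5. Gtsf1 moved opposite to Gtsf1l: it went from 4.29 to 26.4 CPM, a ratio of 2.62 (2.13 to 3.16), the rise of a piRNA pathway component beside the fall of its relative. Of the PRELI family besides Slmo1, Prelid1 was at -0.98 (-1.07 to -0.90), from 189 to 95.6 CPM and just short of the ratio of 2, Slmo2 was at 0.01 (69.7 and 70.2 CPM) and Prelid2, under the CPM minimum, at 1.16. Of 8 other adhesion genes tested, 1 was lower (Vasp, -1.58) and 1 higher (Tln2, 1.41), and the kindlin of most tissues, Fermt2, was at -0.04 (64.5 and 62.8 CPM).

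Other small nucleolar RNA hosts were mixed, with Snhg6 (-1.42) and Snhg9 (-1.51) lower and Snhg11 (2.16) higher among 4 tested. The deposited table held no entry for 13 of the 19 listed, under the symbols searched. Of the Notch list only Rbpj besides Hey1 met the minimums, at 0.69, and Hey2 and Heyl were under 1 CPM throughout. SOX factors went both ways, with Sox13 lower (-1.36), Sox4 (1.10) and Sox12 (1.06) higher, and Sox2 at -0.94. Pluripotency and primordial germ cell genes formed the list with the most members lower: 7 of 13 tested besides Zfp296, with 0 higher and a median of -1.42, against 0.29 over all genes. Klf2 (-3.09), Nanog (-2.66), Utf1 (-1.90), Esrrb (-1.89), Zfp42 (-1.86), Tfap2c (-1.65) and Dppa4 (-1.42) were those, while Pou5f1 was at 0.32. Meiosis genes were the counterpart, with 9 of 9 tested higher.

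Across 9 germ cell points, the stages divided by Stra8 bin, the mean of the 10 genes on the log2(CPM + 5) scale was compared with each of 4416 genes of at least 20 CPM at E11.5. The points share libraries and depth, so the correlation is a description. Each member correlated with the mean of the 10 at a Pearson r between 0.960 (Snhg12) and 0.996 (Slmo1). A high r was built in for them, because each is part of that mean and the points include the germ cells that chose the genes. Outside the 10, the closest were Pfkp (0.995), a phosphofructokinase isoform of glycolysis, Nop10 (0.995) and Rrp9 (0.994), both of small nucleolar ribonucleoproteins, then Arpc4, Tmem222, Tmem29, Folr1 and Tomm40 (all 0.993). Likeness of shape is not likeness of size: Pfkp went from 31.9 to 3.44 CPM between E11.5 and E14.5, but Nop10 from 667 to 252 and Tmem222 from 37.9 to 23.5.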

How the data were processed

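The deposited table holds natural log (ln) values: the authors scaled each cell to a total of 10000 and took ln after adding 1. This was read from the values themselves: 100% of the 69792436 values above 0 were whole multiples of 1 UMI at a relative tolerance of 0.0001, so UMI counts were recovered and used (the plan had assumed counts). Per the submitters' processing notes, Cell Ranger 2.2.0 and mm10 were used. How cells were filtered is not given in the sources used here. Cells above 20% mitochondrial UMIs (5 cells) and doublets called per library by Scrublet in scanpy 1.11.5 (113, 104, 106 and 94, simulated ratio 2, expected rate 0.06, seed 1) were removed. UMIs were summed per class and library. A gene was called with at least 50 UMIs over both sides, 20 CPM in the higher, the ratio named (2, or 4 for E14.5 against E11.5) and Poisson intervals that did not overlap. The rule without the CPM minimum was added after seeing the data. The call rule and the ratio interval were tested on simulated counts, for germ cells at E14.5 against E11.5. The classing of cells, the bins, the thinning and the weighting were not tested on simulated data. The members, gene lists and bins were chosen with earlier results of these data known. The text names the 10 members, listed relatives that passed a ratio of 2 or show a family, and the 8 genes of highest likeness.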

Additional observations from a re-analysis of the deposited data

Results flagged for a closer look

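Fermt3 moved in opposite directions in the 2 cell classes of the same libraries. In somatic cells its log2 ratio of E14.5 to E11.5 was 1.86 (1.64 to 2.09), from 277 UMIs in 4352 cells to 399 in 2010, while in germ cells it was -3.19 (-3.49 to -2.90). With 1 library per stage the difference between the classes was not tested. Cells of no marker class carried 46.6 CPM of Fermt3 at E14.5, and their part in the result was not tested.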

How the results depend on the processing

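No paired analysis was possible because there is 1 library per stage. All 10 members stayed below E11.5 at E14.5 in germ cells under each alternative run but the subtraction of somatic CPM. Snhg12 lay below the somatic level at E11.5 (40.5 and 46.3 CPM) and E14.5 (3.83 and 32.1 CPM), so the subtraction left it at 0 at both. Fblim1 was level with the soma at E11.5 (24.3 and 24.2 CPM), so little of it remained to compare. The count past 4-fold was 9 when 2 of the 6 germ cell markers were enough and 7 with the somatic CPM subtracted. Counts past 2-fold moved most with the minimums: with no minimum, and with 50 UMIs but no CPM minimum, they were 5 for E13.5 against E12.5, 10 for E14.5 against E13.5, 8 for any Stra8 at E13.5 and 7 for no Pou5f1. High Stra8 at E14.5 gave 9 with no minimum, 1 with bins set after thinning and 1 with terciles. The count for no Pou5f1 was 0 with 2 markers, 0 with the somatic CPM subtracted and 0 with bins set after thinning. Within cells without Stra8 the count for E14.5 against E13.5 was 2 with 2 markers, 1 with the somatic CPM subtracted and 3 with terciles. E12.5 against E11.5 gave 2 with 4 markers and 0 with the somatic CPM subtracted. Direction turned for Fermt3 with 2 markers (0.59 for no against high Pou5f1, 0.24 within no Stra8), for Snhg12 in germ against somatic cells at E11.5 on a median-of-ratios scale (0.19), and for Hey1 at E12.5 against E11.5 with the somatic CPM subtracted (1.62, from small remainders). Apart from the minimums, the subtraction and the thinning, the cause was not tested. Median detection was 63.3%, 42.0%, 20.7% and 5.04% without thinning and 6.73%, 5.0%, 2.26% and 0.643% at 2000 UMIs. Ratios with 0 UMIs on a side could not be compared between settings. Depth limits the high Stra8 bin, where 9 members had under 10 UMIs each.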
